A study of Bos taurus with 12 samples.

Results

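The bovine embryonic stem cell line F7 in the condition named 1/7MC was compared with the same line in the condition named MC, over 3 libraries each, which are 6 of the 12 libraries of the study. All 12 libraries carry the genotype label WT, and the 4 groups are MC (treatment label NC), 1/7MC, 1/7MC+Pyr and 1/7MC+Pyr+FGF. As the title of the series has it, the study concerns bovine embryonic stem cells on feeder layers of low density, to which pyruvate or recombinant human basic fibroblast growth factor (FGF) was added. The labels do not explain MC, so the group names stand as given; only 1 cell line was used, and no source says whether the replicates were separate cultures. The members of the comparison are these 6 libraries, chosen by their labels, and they are described across the genes of the deposited count table, mainly outside the usual marker lists.

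Embryonic stem cells of many mammals are grown on a layer of growth-arrested fibroblasts, the feeder cells. Feeders secrete growth factors and lay down extracellular matrix, to which the colonies attach and from which they receive signals. The colonies are epithelial, divide quickly and express a set of transcription factors that keep them undifferentiated. The RNA was taken in bulk, so that fewer cells of a type and less RNA per cell cannot be told apart, and RNA of feeders and of stem cells cannot be told apart either.

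Total counts were 35483180, 31709905 and 27373759 in MC replicates 1 to 3 and 29276694, 37092605 and 33625993 in 1/7MC replicates 1 to 3. The gene models behind the counts of MC replicates 2 and 3 differ from those of the remaining 10 libraries. So 2 fits were made with edgeR, the first with all MC libraries and the second with MC replicate 1 alone. A gene counts as higher or lower here if its adjusted p was under 0.05 in the first fit and its direction was the same in the second. Where a count is given without MC replicate 1, no second fit was made, and the adjusted p alone decided. Fold changes are log2 of 1/7MC over MC. Beside a level in CPM, ± is the SD (n = 3 libraries); beside a fold change it is the SE. A pair such as (3.75 ± 0.19, 3.75) gives the first fit with its standard error (n = 3 libraries per group) and then the second fit, which takes the spread of the lone MC library from the other groups. CPM are counts relative to the library total after trimmed-mean (TMM) scaling. CPM levels of different genes are not compared, because they are not corrected for gene length.

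Of 13920 genes tested, 6268 had an adjusted p under 0.05 in the first fit, and 87 of these lost their direction in the second. The other 6181 (44.4%) were called, 3302 of them higher in 1/7MC (23.7%) and 2879 lower (20.7%). These shares are the background for every list. With an adjusted p under 0.05 in both fits, 1935 genes were higher (13.9%) and 1258 lower (9.04%), 22.9% together; for each list the pair of counts in brackets uses this narrower rule. The median fold change over all tested genes was 0.005, and 0.012 against MC replicate 1. Large changes were mostly rises: 643 genes were higher by at least 2 on the log2 scale and 200 lower, and 128 were higher by at least 4 and 11 lower. Requiring that size and an adjusted p under 0.05 in both fits left 529 higher and 109 lower by at least 2. These 529 genes had a median of 0.665 CPM in MC and 6.55 CPM in 1/7MC; over all tested genes the medians were 23.7 and 26.2 CPM. The 109 genes had a median of 1.96 CPM in MC and 0.375 CPM in 1/7MC. In both directions the larger changes therefore rested on few reads in the lower group. By list, genes of elastic fibres, caveolae, annexins, secreted growth factors, the neural crest, nucleic acid sensing and lysosomes were more often higher than lower in 1/7MC, and genes of DNA repair and the nuclear pore more often lower than higher.

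**Figure D1:**
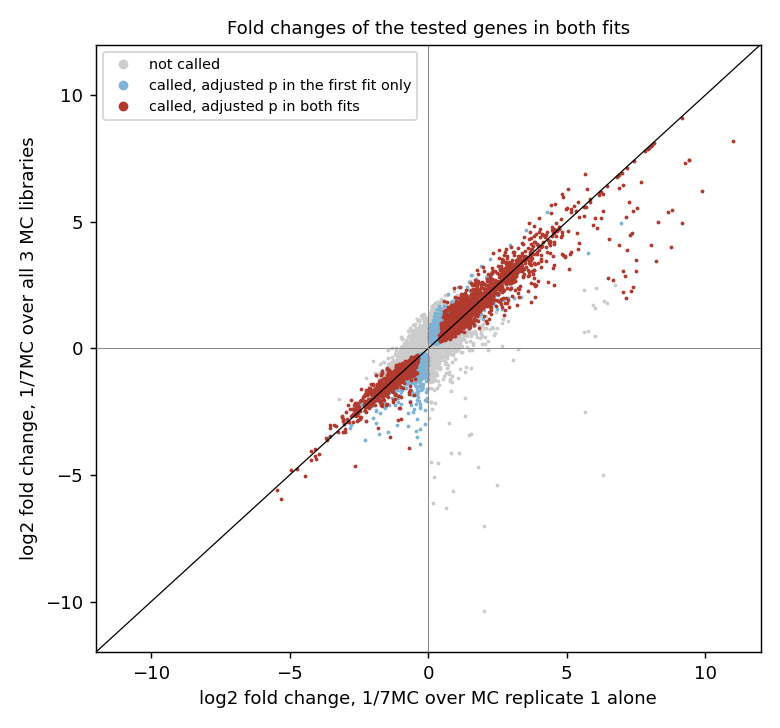
Each point is a tested gene, with its log2 fold change of 1/7MC over MC replicate 1 alone (x axis) and over all 3 MC libraries (y axis); the line marks equal values. Red genes had an adjusted p under 0.05 in both fits, blue genes in the first fit only with the same direction, and grey genes were not called. Most genes lie near the line, and the points far from it are genes for which MC replicate 1 differed from MC replicates 2 and 3.

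Single genes differed between the MC libraries. In 815 tested genes MC replicate 1 lay more than 2-fold from the mean of MC replicates 2 and 3, and 336 of these were called, 126 of them in both fits. MC replicates 2 and 3 lay more than 2-fold apart in 11 genes, and 1/7MC replicate 1 lay as far from the mean of replicates 2 and 3 in 23. RPL19, a ribosomal protein, shows the pattern: it had 0.168, 135 and 129 CPM in MC and 1.11, 0.318 and 0.665 CPM in 1/7MC, a fall in the first fit and a rise in the second, and it was not called.

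The stem cell label was held against 20 markers of pluripotent cells. Their summed level was 4960 to 5060 CPM in MC and 2820 to 3140 CPM in 1/7MC, and 0 of 20 tested members were higher in 1/7MC and 12 lower (0 and 9 in both fits). DESeq2, and edgeR at an unadjusted p under 0.05, also gave 0 rises. Markers of fibroblasts and feeders moved the other way: their summed level was 8640 to 8820 CPM in MC and 25000 to 33800 CPM in 1/7MC, and 27 of 29 tested members were higher in 1/7MC and 1 lower (26 and 0 in both fits). The groups did not overlap in either sum. The same fibroblast sum was 29600 to 44100 CPM in 1/7MC+Pyr and 20200 to 27900 CPM in 1/7MC+Pyr+FGF. The pluripotent sum was 4570 to 4840 CPM in 1/7MC+Pyr and 3780 to 4210 CPM in 1/7MC+Pyr+FGF. Across all groups the fibroblast and pluripotent sums thus did not always move in opposite ways. The 22 listed markers of endothelium and blood summed to 36.9 to 39.8 CPM in MC (ERG, GATA1 and HBB at 0). In 1/7MC they summed to 31.9 to 41.8 CPM (GATA1 at 0). Of 16 tested, 5 were higher and 6 lower, shares of 31.2% and 37.5% against the backgrounds of 23.7% and 20.7%. The list does not hold every gene known from endothelium, and those outside it were not counted. PLVAP, a protein of endothelial diaphragms, is not in this list and rose. So did ESM1, SELP and ADGRF5, which are also outside the list and are named below. The fibroblast sum was higher in the same libraries as the matrix genes and growth factors that rose, and its part in those results was not tested.

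The genes that came closest to an on and off pattern were all on in 1/7MC. In 12 genes every 1/7MC library had at least 2 CPM and every MC library at most 0.2 CPM, and no gene met the reverse rule. They were FAP, DAPL1, PALMD, NTS, PTHLH, ARHGDIB, SLC22A3, GPC5, WFIKKN2, ESM1, CDH12 and SRPX2. SLC22A3, a transporter of organic cations, had 0, 0 and 2 counts in MC and 195, 293 and 275 counts in 1/7MC. PTHLH, the parathyroid hormone related peptide, had 0, 0 and 1 counts in MC and 70, 99 and 88 in 1/7MC. NTS, the precursor of neurotensin, had 4, 3 and 1 counts against 142, 186 and 169. WFIKKN2, a secreted antagonist of growth and differentiation factors, had 3, 1 and 2 counts against 109, 132 and 99. GPC5, a glypican of the cell surface, had 1, 1 and 4 counts against 161, 273 and 237. With so few counts in MC no fold is given for these genes here. With limits of 1 and 0.1 CPM, 17 genes were near 0 in MC and 1 in 1/7MC. Without MC replicate 1, that is over MC libraries of other gene models only, 32 genes were near 0 in MC and 18 in 1/7MC.

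The 25 largest rises were taken among genes that passed in both fits with no overlap of the groups. PLVAP, a protein of endothelial diaphragms, had 3.56, 2.52 and 3.04 CPM in MC and 129, 148 and 102 CPM in 1/7MC. Its fold change was 5.38 ± 0.27 (5.17 against MC replicate 1), and its level was 31.7 ± 9.65 CPM in 1/7MC+Pyr and 39 ± 5.78 CPM in 1/7MC+Pyr+FGF. ITGA1, the collagen-binding integrin subunit, had 3.39, 0.893 and 0.925 CPM in MC and 63.4, 91.6 and 61.6 CPM in 1/7MC; its fold change was 5.33 ± 0.41 (4.43 against MC replicate 1). In ITGA1, MC replicate 1 lay above the other MC libraries, so the second fit gave the smaller fold. BAMBI, a pseudoreceptor that dampens transforming growth factor signalling, had 2.3, 2.07 and 2.26 CPM in MC and 56.8, 58.3 and 67.6 CPM in 1/7MC. All 3 MC libraries lay close together there, and the fold was 4.78 ± 0.19 (4.74 against MC replicate 1). WFDC1, a secreted protein with a protease inhibitor fold, had 0.757, 1.21 and 0.666 CPM in MC and 31.9, 32.8 and 32.9 CPM in 1/7MC, with a fold of 5.2 ± 0.19 (5.43 against MC replicate 1). EDNRA, an endothelin receptor, had 0.617, 0.542 and 0.74 CPM in MC and 16.1, 17.1 and 16.2 CPM in 1/7MC, with a fold of 4.7 ± 0.19 (4.74 against MC replicate 1). MT3, a metal-binding metallothionein, had 0.224, 0.255 and 0.185 CPM in MC and 6.33, 2.94 and 8.88 CPM in 1/7MC, with 1/7MC replicate 2 the lowest of its group. With the additions MT3 had 0.0683 ± 0.0638 CPM in 1/7MC+Pyr and 0.062 ± 0.0284 CPM in 1/7MC+Pyr+FGF. Other large rises were RGS8, a regulator of G protein signals (4.83 ± 0.44, 3.81), ADAM12, a membrane metalloprotease (5.23 ± 0.44, 5.64), the secreted WNT modulator DKK2 (4.75 ± 0.38, 6.1), the matricellular gene SPARCL1 (5.52 ± 0.36, 5.17) and the adhesion molecule SELP (4.71 ± 0.24, 4.55). In ADGRF5, CCN4, DLX1, EPHA3, GRIA2, IFIH1 and IL15, which are described with their lists, MC replicate 1 held at most 3 counts, so the second value rests on very few reads.

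The 25 largest falls were chosen by the same rule. IRS4, an adaptor of the insulin receptor, had 643, 508 and 483 CPM in MC and 75.3, 73.3 and 76.5 CPM in 1/7MC. Its fold change was -2.86 ± 0.11 (-3.09 against MC replicate 1), and its level was 148 ± 4.9 CPM in 1/7MC+Pyr and 158 ± 13.2 CPM in 1/7MC+Pyr+FGF. ACTA1, the actin of skeletal muscle, had 46, 45.3 and 45.6 CPM in MC and 6.06, 5.38 and 7.0 CPM in 1/7MC, a change of -2.89 ± 0.16 (-2.89 against MC replicate 1). NPTX2, a pentraxin of synapses, had 38.6, 36 and 40.1 CPM in MC and 5.66, 7.65 and 5.43 CPM in 1/7MC (-2.61 ± 0.25, -2.61). It had 43.8, 28.4 and 37.3 CPM in 1/7MC+Pyr and 26.7, 52.4 and 30.9 CPM in 1/7MC+Pyr+FGF, values above and below those of MC and all above those of 1/7MC. BNIP3, a receptor for the removal of mitochondria, had 5.41, 4.72 and 5.03 CPM in MC and 0.876, 0.847 and 0.954 CPM in 1/7MC (-2.5 ± 0.23, -2.58), and only 0.163 ± 0.0683 CPM in 1/7MC+Pyr and 0.121 ± 0.0499 CPM in 1/7MC+Pyr+FGF. FOXB2, a forkhead factor of the neural tube, had 4.79, 5.61 and 5.7 CPM in MC and 0, 0.397 and 0.318 CPM in 1/7MC (-4.4 ± 0.65, -4.23). LMO1, a LIM-only cofactor, had 16.6, 19.9 and 19.9 CPM in MC and 2.09, 2.25 and 3.12 CPM in 1/7MC (-2.91 ± 0.33, -2.72). Falls were also seen in DSCAM, an adhesion molecule of neurons (-2.84 ± 0.26, -2.54), ADCY8, an adenylyl cyclase (-2.63 ± 0.26, -2.7), RYR2, a calcium release channel (-2.61 ± 0.33, -2.72), CNGA3, a cyclic nucleotide gated channel (-2.39 ± 0.23, -2.7), and MMP3, the protease stromelysin (-2.46 ± 0.29, -2.56). For 5 of the 25, the second fit gave a much smaller fold, and MC replicate 1 lay far below the other MC libraries: HEATR1 (-3.93 ± 0.68, -0.70), KCNIP3 (-3.5 ± 0.50, -1.38), DLG2 (-2.84 ± 0.44, -1.09), DUSP8 (-2.78 ± 0.44, -0.98) and KLF13 (-2.35 ± 0.38, -1.07).

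**Figure D2:**
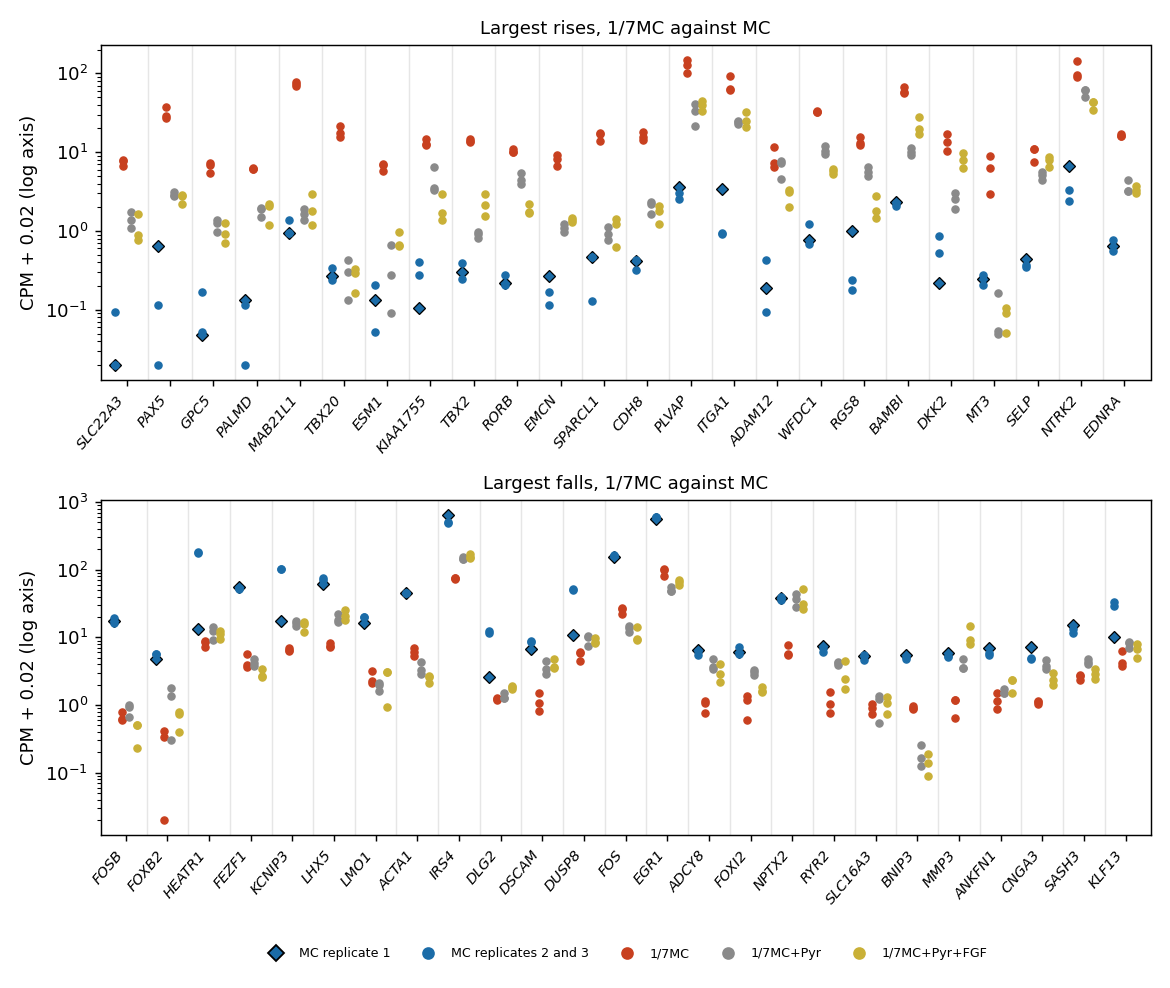
Level of genes among the 25 with the largest rise (top) and the 25 with the largest fall (bottom), as CPM plus 0.02 on a log axis, 1 point per library; blue is MC, with replicate 1 as a diamond, red is 1/7MC, grey is 1/7MC+Pyr and yellow is 1/7MC+Pyr+FGF. Red and blue points do not overlap in any of these genes, which the choice of genes fixed, and for HEATR1, KCNIP3, DLG2, DUSP8 and KLF13 the diamond lies well below the other blue points.

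Of the lists with 20 or more tested members, elastic fibre genes had the largest share of higher members after the fibroblast markers. Elastic fibres consist of elastin on a scaffold of fibrillin microfibrils, joined by lysyl oxidases. In this list 19 of 27 tested members were higher in 1/7MC and 0 lower (18 and 0 in both fits), a share of 70.4% against the background of 23.7%. Neither edgeR at an unadjusted p under 0.05 nor DESeq2 gave a fall. The median fold change was 1.13 (1.25 against MC replicate 1). EMILIN1, a glycoprotein of the fibre surface, had 19.9, 20.3 and 16.4 CPM in MC and 181, 218 and 147 CPM in 1/7MC, a rise of 3.27 ± 0.24 (3.2 against MC replicate 1). LTBP2, a fibrillin-binding protein, had 3.73, 3.19 and 2.96 CPM in MC and 29, 42.4 and 21.9 CPM in 1/7MC, a rise of 3.24 ± 0.30 (3.08 against MC replicate 1). FBN1, fibrillin itself, had 58.4, 55.4 and 52.2 CPM in MC and 267, 457 and 248 CPM in 1/7MC (2.55 ± 0.23, 2.49), and ELN, elastin, had 8.41, 8.1 and 7.33 CPM in MC and 38.6, 43.4 and 33.7 CPM in 1/7MC (2.28 ± 0.17, 2.21). MFAP4, a protein of the microfibrils (3.06 ± 0.20, 2.72), and LOXL2, a lysyl oxidase (2.15 ± 0.17, 2.21), also rose. FBN2, the fibrillin of embryonic tissue, had 165, 198 and 191 CPM in MC and 197, 303 and 176 CPM in 1/7MC and was not called (0.29 ± 0.23, 0.47).

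The machinery that folds and exports collagen was less uniform. Collagen chains are hydroxylated and folded in the endoplasmic reticulum and leave it in large coated carriers. Here 16 of 28 tested members were higher in 1/7MC and 4 lower (9 and 2 in both fits), with a median of 0.46 (0.54 against MC replicate 1); without MC replicate 2 or 3, 2 were lower. P3H2, a prolyl 3-hydroxylase, had 3.95, 3.57 and 3.96 CPM in MC and 81.3, 106 and 86.8 CPM in 1/7MC, a rise of 4.58 ± 0.19 (4.54 against MC replicate 1). PLOD2, which hydroxylates lysines of collagen telopeptides, had 7.31, 7.84 and 8.33 CPM in MC and 66.6, 85.1 and 63.8 CPM in 1/7MC, a rise of 3.2 ± 0.14 (3.31 against MC replicate 1). SEC24D, a coat subunit of the carriers, had 8.29, 9.15 and 9.84 CPM in MC and 45.5, 58.7 and 48.9 CPM in 1/7MC (2.49 ± 0.14, 2.63). SEC23A, another coat subunit, rose (1.0 ± 0.11, 1.07), while P4HA3, a subunit of prolyl 4-hydroxylase (-0.79 ± 0.16, -0.72), and TMEM38B, an ion channel of the endoplasmic reticulum (-0.68 ± 0.12, -0.58), fell. SERPINH1, the collagen chaperone, had 1045 ± 57.2 CPM in MC and 1169 ± 72.8 CPM in 1/7MC and was not called (0.16 ± 0.09, 0.27).

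Glycan-rich matrix showed changes in both directions. Heparan sulfate chains on cell-surface proteoglycans hold growth factors, and sulfotransferases and sulfatases shape where these bind. Of the heparan sulfate genes, 15 of 32 tested members were higher in 1/7MC and 7 lower (8 and 4 in both fits); without 1/7MC replicate 1, 4 were lower. The extracellular sulfatases SULF1 (2.11 ± 0.15, 2.09) and SULF2 (1.7 ± 0.15, 1.72) rose. The 3-O-sulfotransferases HS3ST3A1 (-1.86 ± 0.25, -1.65) and HS3ST3B1 (-1.51 ± 0.30, -1.26) fell. Of the hyaluronan and chondroitin genes, 11 of 30 tested members were higher in 1/7MC and 8 lower (8 and 4 in both fits). CD44, the hyaluronan receptor, had 1.85, 2.46 and 2.89 CPM in MC and 13.2, 15.6 and 13.7 CPM in 1/7MC, a rise of 2.57 ± 0.20 (2.95 against MC replicate 1). CEMIP, which depolymerises hyaluronan (2.97 ± 0.43, 2.78), and the large proteoglycan VCAN (2.02 ± 0.23, 1.99) rose too, whereas the brain proteoglycan NCAN fell (-1.4 ± 0.25, -1.35). Of the ADAM and ADAMTS proteases, 14 of 35 tested members were higher in 1/7MC and 6 lower (11 and 3 in both fits), led after ADAM12 by ADAMTSL2 (3.76 ± 0.40, 4.38), ADAMTS16 (3.28 ± 0.21, 2.97) and ADAMTS12 (2.62 ± 0.26, 3.06); ADAMTSL1 fell (-2.2 ± 0.34, -1.48).

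Genes of caveolae, of the annexins and of the actin cytoskeleton were also higher in more members than the background. Caveolae are small pits of the plasma membrane built by caveolins and cavins, and 6 of 8 tested members were higher in 1/7MC and 0 lower (5 and 0 in both fits). DESeq2 called 1 caveolar gene lower, and edgeR at an unadjusted p under 0.05 none. CAV1 had 4.48, 3.67 and 3.26 CPM in MC and 15.2, 19.2 and 16.2 CPM in 1/7MC, a rise of 2.14 ± 0.18 (1.92 against MC replicate 1), and CAVIN2 had 1.01, 1.34 and 1.48 CPM in MC and 13.2, 10.8 and 9.45 CPM in 1/7MC, a rise of 3.13 ± 0.30 (3.47 against MC replicate 1). Of the annexins, S100 proteins and galectins, which bind calcium, membranes and glycans, 13 of 23 tested members were higher in 1/7MC and 1 lower (12 and 1 in both fits), with a median of 0.82 (0.57 against MC replicate 1). ANXA5, the annexin that binds phosphatidylserine, had 46.7, 50.5 and 50.6 CPM in MC and 255, 263 and 271 CPM in 1/7MC, a rise of 2.42 ± 0.15 (2.51 against MC replicate 1). LGALS1 (1.55 ± 0.18, 1.61) and S100A10 (1.68 ± 0.17, 1.92) rose, and S100A2 fell (-1.68 ± 0.24, -1.62). Among actomyosin and focal adhesion genes, 23 of 51 tested members were higher in 1/7MC and 9 lower (19 and 3 in both fits). The actin-binding PDLIM1 (1.85 ± 0.10, 1.99), SYNPO (1.84 ± 0.20, 1.63) and PDLIM3 (1.65 ± 0.18, 1.6) rose, while vinculin, VCL, which links integrins to actin, fell (-0.89 ± 0.15, -0.85). VCL had 1100, 1138 and 1118 CPM in MC and 554, 723 and 534 CPM in 1/7MC. Of intermediate filament and lamin genes, 4 of 13 were higher and 5 lower (4 and 1); without MC replicate 2 or 1/7MC replicate 1, 3 were lower. LMNA, the A-type lamin, had 33.3, 30.5 and 29.6 CPM in MC and 96, 97.7 and 103 CPM in 1/7MC (1.67 ± 0.12, 1.59).

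Cadherins and guidance molecules changed in sets that pointed both ways. Of the cadherins and protocadherins, 14 of 38 tested members were higher in 1/7MC and 12 lower (13 and 10 in both fits). CDH8, a cadherin of neurons, had 0.392, 0.414 and 0.296 CPM in MC and 14.3, 18.2 and 15.5 CPM in 1/7MC, a rise of 5.42 ± 0.25 (5.35 against MC replicate 1). CDH17, first known from liver and intestine (2.87 ± 0.31, 2.82), CDH18 (2.69 ± 0.21, 2.88) and PCDH7 (2.24 ± 0.22, 1.87) rose as well. PCDH1 (-2.13 ± 0.22, -1.75) and the giant cadherins FAT2 (-2.0 ± 0.49, -2.09) and FAT3 (-1.03 ± 0.28, -1.37) fell. CDH2, N-cadherin, had 425, 466 and 458 CPM in MC and 430.4, 539 and 405 CPM in 1/7MC and was not called (0.03 ± 0.12, 0.12).

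Ligands and receptors of axon guidance steer growing cells by attraction and repulsion. Of the netrin and SLIT group, 9 of 21 tested members were higher in 1/7MC and 10 lower (7 and 8 in both fits), shares of 42.9% and 47.6% against the backgrounds of 23.7% and 20.7%. The cues NTN4 and SLIT3 rose: NTN4 had 1.43, 1.88 and 0.962 CPM in MC and 11.5, 13.8 and 10.3 CPM in 1/7MC (3.04 ± 0.21, 3.06), and SLIT3 had 15.8, 15.3 and 17.4 CPM in MC and 48.8, 64.7 and 44.8 CPM in 1/7MC (1.71 ± 0.19, 1.76). The receptors ROBO1 and UNC5D fell: ROBO1 had 167, 144 and 139 CPM in MC and 66.1, 84.7 and 62.9 CPM in 1/7MC (-1.07 ± 0.13, -1.21), and UNC5D had 3.73, 2.42 and 1.89 CPM in MC and 0.606, 0.556 and 0.26 CPM in 1/7MC (-2.5 ± 0.40, -2.96). The cues RGMA (-1.07 ± 0.14, -1.24) and DRAXIN (-0.97 ± 0.33, -1.35) also fell. Of semaphorins, plexins and neuropilins, 12 of 30 tested members were higher in 1/7MC and 8 lower (10 and 5 in both fits); without 1/7MC replicate 1, 5 were lower. The co-receptor NRP2 had 11.1, 4.11 and 6.22 CPM in MC and 67.7, 94.8 and 64 CPM in 1/7MC, a rise of 3.4 ± 0.31 (2.79 against MC replicate 1), and the receptor PLXNA4 had 3.19, 0.829 and 0.777 CPM in MC and 28.5, 48.3 and 28.5 CPM in 1/7MC (4.41 ± 0.43, 3.47). In both, MC replicate 1 lay above the other MC libraries, and the second fit gave the smaller fold. SEMA4D (-1.17 ± 0.11, -1.14) and SEMA5B (-1.06 ± 0.15, -1.23) fell. Of ephrins and Eph receptors, 4 of 20 tested members were higher in 1/7MC and 8 lower (3 and 6 in both fits). EPHA3 rose from low levels, with 0.028, 0.128 and 0.111 CPM in MC and 1.85, 1.09 and 1.13 CPM in 1/7MC (3.92 ± 0.46, 5.42), and the ligand EFNB2 rose too (1.67 ± 0.16, 1.4). EPHA1, with 21.8, 20.5 and 19.1 CPM in MC and 7.07, 7.39 and 6.68 CPM in 1/7MC (-1.54 ± 0.16, -1.61), EPHB3 (-1.27 ± 0.19, -1.08) and EPHB2 (-1.17 ± 0.15, -0.88) fell.

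Secreted growth factors were higher in more members than the background, and their receptors moved both ways. Of growth factor ligands, 21 of 37 tested members were higher in 1/7MC and 6 lower (15 and 3 in both fits), with a median of 1.22 (0.96 against MC replicate 1). IGF2, the fetal insulin-like growth factor, had 41.6, 41 and 41.5 CPM in MC and 539.5, 634 and 497 CPM in 1/7MC. Its 3 MC libraries lay within 1 CPM of each other, and the rise was 3.75 ± 0.19 (3.75 against MC replicate 1), with an edgeR adjusted p of 3.35e-08. In the other groups IGF2 had 197 ± 36.7 CPM in 1/7MC+Pyr and 112 ± 27.7 CPM in 1/7MC+Pyr+FGF. PDGFC, a platelet-derived growth factor, had 7.57, 5.83 and 4.81 CPM in MC and 42.5, 53.2 and 41.2 CPM in 1/7MC, a rise of 2.9 ± 0.17 (2.61 against MC replicate 1), and VEGFC, the lymphatic growth factor, had 1.12, 1.15 and 1.22 CPM in MC and 5.56, 7.92 and 6.48 CPM in 1/7MC, a rise of 2.52 ± 0.19 (2.58 against MC replicate 1). CCN4 (3.71 ± 0.52, 4.89), PDGFD (2.76 ± 0.21, 2.75) and ANGPT2 (2.66 ± 0.32, 2.67) also rose. The neuregulins NRG2 (-2.66 ± 0.67, -2.8) and NRG3 (-1.24 ± 0.26, -1.71) fell.

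Of receptor tyrosine kinases, 10 of 32 tested members were higher in 1/7MC and 9 lower (6 and 8 in both fits). These are shares of 31.2% and 28.1% against the backgrounds of 23.7% and 20.7%. NTRK2, the receptor of brain-derived neurotrophic factor, had 6.75, 3.32 and 2.37 CPM in MC and 95.1, 144 and 88.6 CPM in 1/7MC (4.7 ± 0.33, 4.03), and FLT4, the receptor of VEGFC, had 1.93, 2.55 and 2.37 CPM in MC and 13.6, 15.4 and 11.8 CPM in 1/7MC (2.58 ± 0.21, 2.83). DDR2, a receptor for collagen, rose as well (2.09 ± 0.35, 1.3). RET, the receptor of GDNF family ligands, had 4.06, 5.96 and 5.33 CPM in MC and 1.01, 1.32 and 1.3 CPM in 1/7MC (-2.07 ± 0.26, -1.72). KIT, the receptor of stem cell factor, had 37.1, 40.3 and 42.5 CPM in MC and 14, 15.8 and 14.4 CPM in 1/7MC (-1.44 ± 0.13, -1.32), and ERBB3, a neuregulin receptor, had 8.21, 8.74 and 8.88 CPM in MC and 2.69, 2.17 and 2.66 CPM in 1/7MC (-1.78 ± 0.25, -1.7). VEGFC and its receptor FLT4 were both higher, and NRG2 and ERBB3 both lower. No rule chose these pairs, and the other pairs of ligand and receptor in the lists were not counted.

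Notch signalling passes between neighbouring cells through membrane-bound ligands. Of its genes, 12 of 35 tested members were higher in 1/7MC and 10 lower (7 and 6 in both fits). The ligand JAG1 had 44.2, 45.2 and 45.2 CPM in MC and 152, 208 and 142 CPM in 1/7MC, a rise of 1.9 ± 0.19 (1.93 against MC replicate 1), while the ligand DLL1 had 2.94, 3.38 and 2.89 CPM in MC and 0.505, 0.768 and 0.896 CPM in 1/7MC (-2.07 ± 0.34, -2.0). DLK1, an atypical ligand, had 409, 425 and 422 CPM in MC and 97.6, 71 and 94.5 CPM in 1/7MC, a change of -2.26 ± 0.20 (-2.21 against MC replicate 1); its level was 44.6 ± 9.96 CPM in 1/7MC+Pyr and 43.3 ± 11.5 CPM in 1/7MC+Pyr+FGF. The target gene HEY1 had 1.37, 1.69 and 1.22 CPM in MC and 7.68, 6.7 and 7.86 CPM in 1/7MC (2.37 ± 0.18, 2.44), and the receptor NOTCH3 rose (1.17 ± 0.21, 1.11). NOTCH1 and NOTCH2 were not called, at 174 ± 13.4 CPM in MC and 171 ± 39.7 CPM in 1/7MC for NOTCH1 and 114 ± 30.2 CPM in MC and 132 ± 39.4 CPM in 1/7MC for NOTCH2.

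In the Hedgehog pathway, in which the receptor PTCH1 and the decoy HHIP are also transcriptional targets, 5 of 21 were higher and 7 lower (3 and 5). The share higher, 23.8%, lay near the background of 23.7%, and the share lower was 33.3% against 20.7%. PTCH1 and HHIP both fell. PTCH1 had 279, 319 and 308 CPM in MC and 122, 149 and 114 CPM in 1/7MC, a change of -1.23 ± 0.18 (-1.1 against MC replicate 1), and HHIP had 70.5, 71.7 and 78 CPM in MC and 31.4, 33.9 and 28.9 CPM in 1/7MC (-1.23 ± 0.12, -1.15). GLI2, a transcription factor of the pathway, had 212, 175 and 165 CPM in MC and 81.7, 91 and 72.6 CPM in 1/7MC (-1.17 ± 0.15, -1.36). PTCH1 stood at 284 ± 30.3 CPM in 1/7MC+Pyr and 264 ± 80.7 CPM in 1/7MC+Pyr+FGF, and HHIP at 72.2 ± 4.82 CPM in 1/7MC+Pyr and 58 ± 8.73 CPM in 1/7MC+Pyr+FGF. GLI1, another target, fell in the first fit (-0.45 ± 0.13, -0.40) but had adjusted p = 0.161 in the second fit with edgeR, and GLI3 was not called, at 93.2 ± 17.5 CPM in MC and 93 ± 11.6 CPM in 1/7MC.

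Retinoic acid is made by ALDH1A enzymes and degraded by CYP26 enzymes. Of the retinoid genes, 11 of 27 tested members were higher in 1/7MC and 7 lower (9 and 5 in both fits). The members moved by gene: ALDH1A3 had 3.08, 4.18 and 4.11 CPM in MC and 18.8, 13.6 and 25.3 CPM in 1/7MC (2.35 ± 0.24, 2.65), ALDH1A2 rose (2.79 ± 0.18, 2.81), ALDH1A1 was not called (-0.74 ± 0.43, -0.88), and the receptor RARB, itself a target of retinoic acid, had 1.96, 2.81 and 3.92 CPM in MC and 8.65, 9.98 and 9.11 CPM in 1/7MC (1.68 ± 0.20, 2.25). The degrading enzyme CYP26A1, also induced by retinoic acid, fell and had 48.1, 49.3 and 51.4 CPM in MC and 17.4, 19.6 and 19.5 CPM in 1/7MC (-1.4 ± 0.10, -1.34), and LRAT, which stores retinol as esters, fell (-1.7 ± 0.17, -1.29). The receptor RARG fell too, with 141, 155 and 146 CPM in MC and 88.4, 75.3 and 84.5 CPM in 1/7MC (-0.83 ± 0.09, -0.76). In the Hippo list 12 of 32 tested members were higher in 1/7MC and 8 lower (7 and 5 in both fits); without 1/7MC replicate 1 or 3, 5 were lower. The target CCN2 rose (1.32 ± 0.13, 1.43) and the target CCN1 fell (-0.78 ± 0.12, -0.75), while the coactivator WWTR1 rose (1.23 ± 0.11, 1.15).

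**Figure D3:**
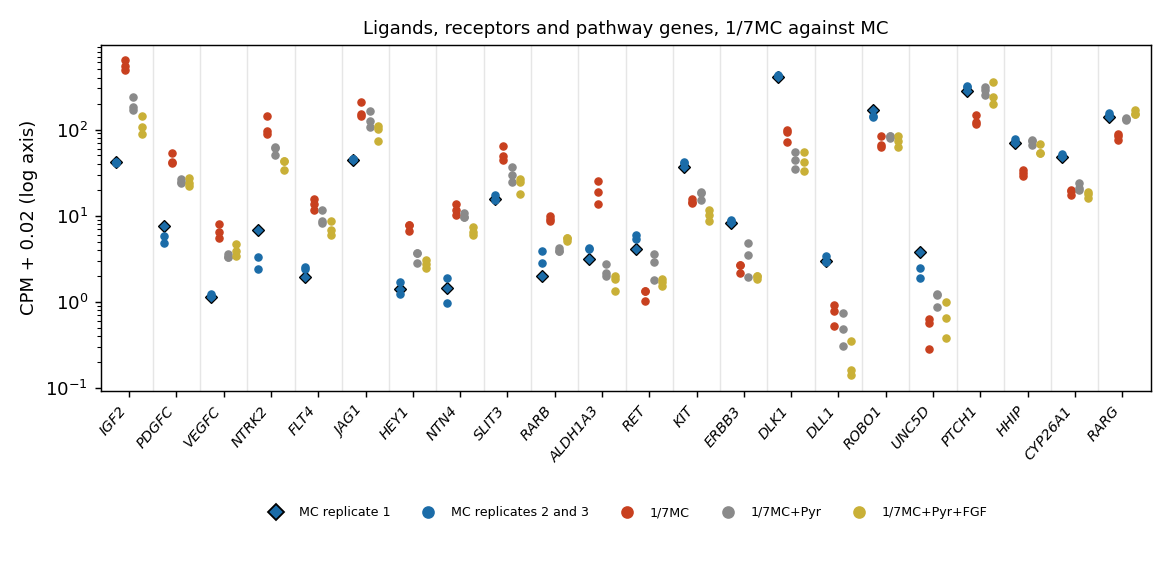
Level of 22 signalling genes as CPM plus 0.02 on a log axis, 1 point per library; blue is MC, with replicate 1 as a diamond, red is 1/7MC, grey is 1/7MC+Pyr and yellow is 1/7MC+Pyr+FGF. From IGF2 to ALDH1A3 the 1/7MC points lie above those of MC, and from RET to RARG below; the genes shown were picked after their values were seen. PTCH1 and HHIP in the pyruvate groups lie near the MC points.

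Genes of the neural crest and of pigment cells were higher in more members than the background, and some were lower. The crest is a migratory population at the edge of the neural plate that gives rise to pigment cells, peripheral nerves and parts of the face. In this list 16 of 23 tested members were higher in 1/7MC and 3 lower (13 and 3 in both fits), with a median of 1.57 (1.53 against MC replicate 1). PMEL, which builds the fibrils of pigment granules, had 11.1, 13.1 and 13.3 CPM in MC and 139, 134 and 141 CPM in 1/7MC, a rise of 3.46 ± 0.11 (3.64 against MC replicate 1). EDNRB, the endothelin receptor of crest cells, had 0.617, 0.765 and 0.703 CPM in MC and 12.6, 14.4 and 10.8 CPM in 1/7MC, a rise of 4.18 ± 0.26 (4.36 against MC replicate 1). MLANA, another protein of pigment granules, rose (3.88 ± 0.48, 3.99). MITF, the main regulator of pigment cells, is outside the rule for named genes and was added after its values were seen; it rose too (3.08 ± 0.37, 2.33). The nuclear receptors NR2F1, with 8.91, 12.8 and 12.2 CPM in MC and 89.8, 102 and 88.2 CPM in 1/7MC (3.04 ± 0.23, 3.4), and NR2F2 (2.19 ± 0.17, 2.45) rose too. SOX10, the factor of crest and glia, fell, with 2.72, 1.66 and 1.67 CPM in MC and 0.236, 0.265 and 0.434 CPM in 1/7MC (-2.68 ± 0.42, -3.09), and TFAP2C fell (-1.12 ± 0.17, -1.18). TYRP1, a pigment enzyme, was not called (0.40 ± 0.19, 0.47). Some members are also expressed in fibroblasts, whose summed markers rose in the same libraries. Of lens and placode genes, 8 of 26 were higher and 6 lower (7 and 1), with rises in SIX2 (4.7 ± 0.26, 4.48) and HMX1 (3.94 ± 0.41, 3.71).

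Transcription factor families changed by member. Of forkhead factors, 13 of 30 tested members were higher in 1/7MC and 6 lower (9 and 5 in both fits). FOXP2 had 3.7, 2.52 and 2.11 CPM in MC and 52.7, 77 and 62.3 CPM in 1/7MC, a rise of 4.51 ± 0.24 (4.13 against MC replicate 1); FOXF2 (3.47 ± 0.31, 4.08) and FOXC2 (3.6 ± 0.25, 3.44) of mesenchyme rose, and FOXB1 (-1.88 ± 0.18, -2.3) and FOXI2 (-2.63 ± 0.25, -2.59) fell. Of nuclear receptors, 13 of 30 tested members were higher in 1/7MC and 7 lower (9 and 4 in both fits). NR3C1, the glucocorticoid receptor, had 1.79, 1.72 and 2.0 CPM in MC and 7.21, 9.69 and 8.15 CPM in 1/7MC (2.18 ± 0.18, 2.23), and the vitamin D receptor VDR (2.98 ± 0.38, 2.3) and the thyroid receptor THRB (2.6 ± 0.46, 2.22) rose, whereas the oestrogen receptor ESR2 (-2.03 ± 0.49, -2.43) and the fatty acid receptor PPARA (-1.24 ± 0.22, -1.12) fell. Of SOX factors, 6 of 13 were higher and 3 lower (3 and 2), with SOX6 the largest rise (3.42 ± 0.32, 2.68). Among LIM homeobox genes, 4 of 13 were higher and 5 lower (3 and 3): ISL1 rose (4.46 ± 0.26, 4.82), and LHX1, with 1.6, 1.34 and 1.55 CPM in MC and 0.202, 0.106 and 0.405 CPM in 1/7MC (-2.65 ± 0.39, -2.73), fell. Of ZIC, GLIS and IRX genes, 3 of 11 were higher and 4 lower (2 and 4). Of NKX and DLX genes, 3 of 12 were higher and 4 lower (3 and 0), with DLX1 the largest rise (3.8 ± 0.56, 4.29); 1 was lower with MC replicate 2 left out, and 2 with 1/7MC replicate 1 or 2 left out. Of KLF and SP genes, 4 of 23 were higher and 3 lower (1 and 2); 7 were higher without MC replicate 1 and 5 lower without 1/7MC replicate 2. Of zinc finger factors, 47 of 243 tested members were higher in 1/7MC and 40 lower (19 and 12 in both fits), both shares under the background; 74 were higher without MC replicate 1 and 26 lower without MC replicate 2. ZFP36, which destabilises mRNAs with AU-rich tails, fell (-2.01 ± 0.11, -1.98). Of circadian clock genes, 6 of 23 were higher and 5 lower (3 and 3), and 3 were lower where MC replicate 2 or 3 or 1/7MC replicate 1 or 2 was left out. BHLHE40, a repressor of the clock, had 5.13, 5.29 and 4.37 CPM in MC and 44.4, 52.5 and 48.8 CPM in 1/7MC (3.3 ± 0.14, 3.26). Of germline genes, 2 of 14 were higher and 5 lower (2 and 4): PIWIL1, a partner of small RNAs in the germline, rose, with 0.308, 0.351 and 0.703 CPM in MC and 4.85, 5.0 and 5.64 CPM in 1/7MC (3.53 ± 0.34, 4.06), and NANOS1 fell (-1.06 ± 0.14, -1.02).

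Sensors of foreign nucleic acids were higher, and genes of antigen display lower, in more members than the background. Cytosolic and endosomal sensors recognise RNA or DNA and pass a signal through kinases to interferon genes. Of these genes 19 of 33 tested members were higher in 1/7MC and 3 lower (13 and 2 in both fits), with a median of 0.50 (0.54 against MC replicate 1). TLR3, the endosomal receptor for double-stranded RNA, had 0.168, 0.191 and 0.333 CPM in MC and 2.56, 2.67 and 1.94 CPM in 1/7MC, a rise of 3.38 ± 0.33 (3.81 against MC replicate 1). IKBKE, a kinase of the pathway, had 1.88, 1.66 and 2.29 CPM in MC and 11.1, 12.8 and 10.2 CPM in 1/7MC (2.55 ± 0.22, 2.61), and STING1, the adaptor of DNA sensing, had 1.01, 1.24 and 1.44 CPM in MC and 3.33, 4.0 and 3.33 CPM in 1/7MC (1.53 ± 0.21, 1.83). IFIH1, an RNA helicase of the same route, rose (2.51 ± 0.48, 4.55), and the interferon regulatory factor IRF7 fell (-0.81 ± 0.19, -0.86). Of genes for antigen presentation by MHC class I, 3 of 20 tested members were higher in 1/7MC and 6 lower (1 and 5 in both fits). The other 11 were not called. The share lower was 30.0% against the background of 20.7%, a difference that rests on few genes. CALR and PDIA3 of this list also stand in the list of endoplasmic reticulum chaperones. TAP1, the peptide transporter, had 22.5, 21.8 and 22.1 CPM in MC and 9.94, 9.88 and 10.2 CPM in 1/7MC (-1.15 ± 0.11, -1.16), and the trimming enzyme ERAP1 fell (-0.95 ± 0.17, -0.75). CD74, a chaperone of MHC class II that the list also holds, fell as well (-1.24 ± 0.21, -1.1).

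Of chemokines and cytokines, 12 of 27 tested members were higher in 1/7MC and 4 lower (8 and 2 in both fits). CXCL14 (3.44 ± 0.25, 3.19), CCL2 (3.08 ± 0.39, 2.61) and IL15 (4.78 ± 0.68, 4.73) rose, and CXCL12, a chemokine of stroma, fell, with 72.1, 65.6 and 65.2 CPM in MC and 41.6, 43 and 38.9 CPM in 1/7MC (-0.72 ± 0.09, -0.80). Of complement and coagulation genes, 11 of 26 tested members were higher in 1/7MC and 5 lower (9 and 4 in both fits). CD59, which protects cells from complement, had 10.3, 6.44 and 5.59 CPM in MC and 33.4, 33.5 and 35.9 CPM in 1/7MC (2.2 ± 0.18, 1.75). F2RL1, a protease-activated receptor, had 209.8, 229.8 and 239 CPM in MC and 53.9, 61.3 and 54.2 CPM in 1/7MC (-2.0 ± 0.14, -1.88), and the complement component C2 fell (-1.99 ± 0.14, -1.93). Of prostaglandin and eicosanoid genes, 7 of 21 were higher and 3 lower (4 and 1), with HPGD, the enzyme that inactivates prostaglandins, higher (1.83 ± 0.48, 2.58).

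Lysosomal genes rose in more members than the background. Lysosomes digest macromolecules with acid hydrolases, several of which also act on matrix. Of lysosome and autophagy genes, 27 of 53 tested members were higher in 1/7MC and 7 lower (21 and 2 in both fits), with a median of 0.40 (0.41 against MC replicate 1); 4 were lower without MC replicate 2 or 3 or 1/7MC replicate 1. CTSK, the cathepsin that cleaves collagen, had 12.1, 12.9 and 13.2 CPM in MC and 36.7, 42 and 31.2 CPM in 1/7MC, a rise of 1.53 ± 0.13 (1.62 against MC replicate 1). CTSL had 3.45, 2.93 and 3.29 CPM in MC and 8.79, 10.6 and 9.92 CPM in 1/7MC, a rise of 1.6 ± 0.14 (1.52 against MC replicate 1), and ARSB, which removes sulfate from glycosaminoglycans, had 9.05, 8.55 and 8.29 CPM in MC and 24, 34 and 23.7 CPM in 1/7MC, a rise of 1.66 ± 0.18 (1.61 against MC replicate 1). TFEB, a transcription factor of lysosomal genes, rose (1.59 ± 0.29, 1.43), and its relative TFE3 fell (-0.41 ± 0.07, -0.39). MAP1LC3A, a protein of autophagosomes, rose (1.01 ± 0.14, 1.13), and CTSC, another cathepsin, fell (-0.67 ± 0.09, -0.57).

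DNA repair and nuclear pore genes were lower in more members than the background. Of DNA repair and Fanconi genes, 1 of 57 tested members were higher in 1/7MC and 29 lower (0 and 11 in both fits); that is 50.9% lower against the background of 20.7%, and 19.3% against 9.04% when both fits were required. The median was -0.35 (-0.26 against MC replicate 1). The single rise, MLH3 (0.51 ± 0.16, 0.51), was lost without MC replicate 2 or 3 or 1/7MC replicate 3, and for the 0 rises in both fits edgeR at an unadjusted p under 0.05 and DESeq2 each gave 2. ATM, a kinase of the break response, had 67, 68 and 65.1 CPM in MC and 33.3, 43.2 and 38.6 CPM in 1/7MC, a change of -0.80 ± 0.12 (-0.79 against MC replicate 1), and CHEK1, a checkpoint kinase, had 115, 117 and 121 CPM in MC and 74.1, 69 and 73 CPM in 1/7MC, a change of -0.71 ± 0.12 (-0.67 against MC replicate 1). FANCB (-0.95 ± 0.22, -1.22), RAD54L (-0.72 ± 0.08, -0.69) and CHEK2 (-0.68 ± 0.09, -0.63) fell too. BRCA1 fell in the first fit (-0.45 ± 0.09, -0.39), with adjusted p = 0.0665 in the second (both edgeR). Of nuclear pore genes, 0 of 27 tested members were higher in 1/7MC and 14 lower (0 and 6 in both fits), a share of 51.9%, or 22.2% in both fits, with a median of -0.30 (-0.25 against MC replicate 1). Neither edgeR at an unadjusted p under 0.05 nor DESeq2 gave a rise; without MC replicate 1, 2 rose. NUP210, a membrane subunit of the pore, had 271, 273 and 268 CPM in MC and 113, 146 and 113 CPM in 1/7MC, a change of -1.13 ± 0.18 (-1.11 against MC replicate 1). NUP155 (-0.65 ± 0.09, -0.59) and NUP153 (-0.63 ± 0.11, -0.51) fell by less.

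For ribosome biogenesis and nucleotide synthesis the counts of lower members depended on the call rule and on which libraries were used. Of ribosome biogenesis genes, 0 of 50 tested members were higher in 1/7MC and 23 lower (0 and 5 in both fits). The share of 46.0% became 10% in both fits, near the background of 9.04%, and 14 were lower when MC replicate 2 or 3 was left out. Neither edgeR at an unadjusted p under 0.05 nor DESeq2 gave a rise. The 5 that passed in both were HEATR1, NAT10 (-0.57 ± 0.07, -0.53), NOLC1 (-0.56 ± 0.08, -0.53), MYBBP1A (-0.52 ± 0.09, -0.54) and RRP12 (-0.51 ± 0.09, -0.46). Of nucleotide synthesis genes, 8 of 47 tested members were higher in 1/7MC and 19 lower (6 and 4 in both fits). The share lower, 40.4%, became 8.51% in both fits, and without MC replicate 2 or 3 or 1/7MC replicate 2, 11 were lower. The members moved both ways: ADA, which deaminates adenosine, had 6.89, 9.47 and 8.66 CPM in MC and 39.7, 42 and 42.9 CPM in 1/7MC, a rise of 2.32 ± 0.18 (2.6 against MC replicate 1), and UPP1, which cleaves uridine, rose (1.37 ± 0.19, 1.27). CAD, which starts pyrimidine synthesis, had 249, 250.4 and 244 CPM in MC and 158, 158 and 153 CPM in 1/7MC, a change of -0.67 ± 0.10 (-0.66 against MC replicate 1). AK4, an adenylate kinase of mitochondria, had 95.5, 50.1 and 49.4 CPM in MC and 20.9, 23.2 and 22 CPM in 1/7MC, a change of -1.56 ± 0.21 (-2.1 against MC replicate 1).

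Ribosomal proteins and proteasome subunits were called in smaller shares than the background in both directions. Of 76 cytosolic ribosomal proteins, 0 were higher and 1 lower (0 and 0 in both fits); edgeR at an unadjusted p under 0.05 gave 0 higher and 2 lower, and DESeq2 gave the same numbers. The lower one was RPS6 (-0.54 ± 0.19, -0.07), which was not called without MC replicate 2 or 3 or 1/7MC replicate 2 or 3. Of 77 mitochondrial ribosomal proteins, 6 were higher and 3 lower (2 and 1), and 10 were higher without MC replicate 1. Of 37 proteasome subunits, 1 was higher and 3 lower (0 and 0); edgeR at an unadjusted p under 0.05 gave 2 and 3, DESeq2 1 and 3, and 1 was lower without MC replicate 2 or 3. The higher subunit was PSMD10 (0.48 ± 0.17, 0.15), not called without MC replicate 2 or 3 or any 1/7MC replicate. The next lists had shares of lower members from 5.26% to 30.0% against 20.7%. Of the aminoacyl-tRNA synthetases, 0 of 20 were higher and 6 lower (0 and 1), the one in both fits being VARS1 (-0.74 ± 0.10, -0.48); edgeR at an unadjusted p under 0.05 and DESeq2 also gave 0 rises. In endoplasmic reticulum chaperones and the unfolded protein response, 4 of 38 were higher and 8 lower (2 and 2), with HSPA5, the main chaperone, lower (-0.71 ± 0.12, -0.50). There 5 were lower without MC replicate 2 or 3 or 1/7MC replicate 3, and 2 higher without 1/7MC replicate 2. Of polyamine and methionine genes, 3 of 23 were higher and 5 lower (0 and 2), with AHCY lower (-0.73 ± 0.10, -0.70); 5 were higher without MC replicate 1 and 3 lower without MC replicate 2, and for the 0 in both fits edgeR at an unadjusted p under 0.05 and DESeq2 each gave 3. Of cilia and left-right genes, 11 of 38 were higher and 2 lower (3 and 1); 7 were higher without MC replicate 2, and 1 was lower without MC replicate 2 or 3 or 1/7MC replicate 1 or 2.

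Of splicing factors, 8 of 82 tested members were higher in 1/7MC and 20 lower (3 and 10 in both fits), and the largest changes were among regulators that act in certain tissues. MBNL1 had 14.7, 11.7 and 10.3 CPM in MC and 27.2, 32.8 and 26.3 CPM in 1/7MC, a rise of 1.23 ± 0.15 (0.99 against MC replicate 1), and MBNL2 rose too (0.98 ± 0.12, 0.88); both are regulators of differentiated tissue. ESRP2, an epithelial regulator, had 4.04, 5.39 and 4.37 CPM in MC and 1.35, 1.24 and 1.3 CPM in 1/7MC (-1.82 ± 0.20, -1.62), and CELF3 (-1.71 ± 0.23, -1.92) and CELF6 (-1.62 ± 0.18, -1.56), which act in neurons, fell. With MC replicate 2 left out 4 splicing factors were higher, and 5 with the third replicate of either group left out. Of genes of the neuronal cytoskeleton and synapse, 19 of 43 tested members were higher in 1/7MC and 9 lower (13 and 9 in both fits). GRIA2, a glutamate receptor subunit, rose from low levels (5.16 ± 0.58, 6.03), as did the synaptic adhesion molecule NLGN1 (2.11 ± 0.26, 1.94); STMN4 (-2.23 ± 0.29, -1.93) and GRIA1 (-1.05 ± 0.21, -1.48) fell.

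**Figure D4:**
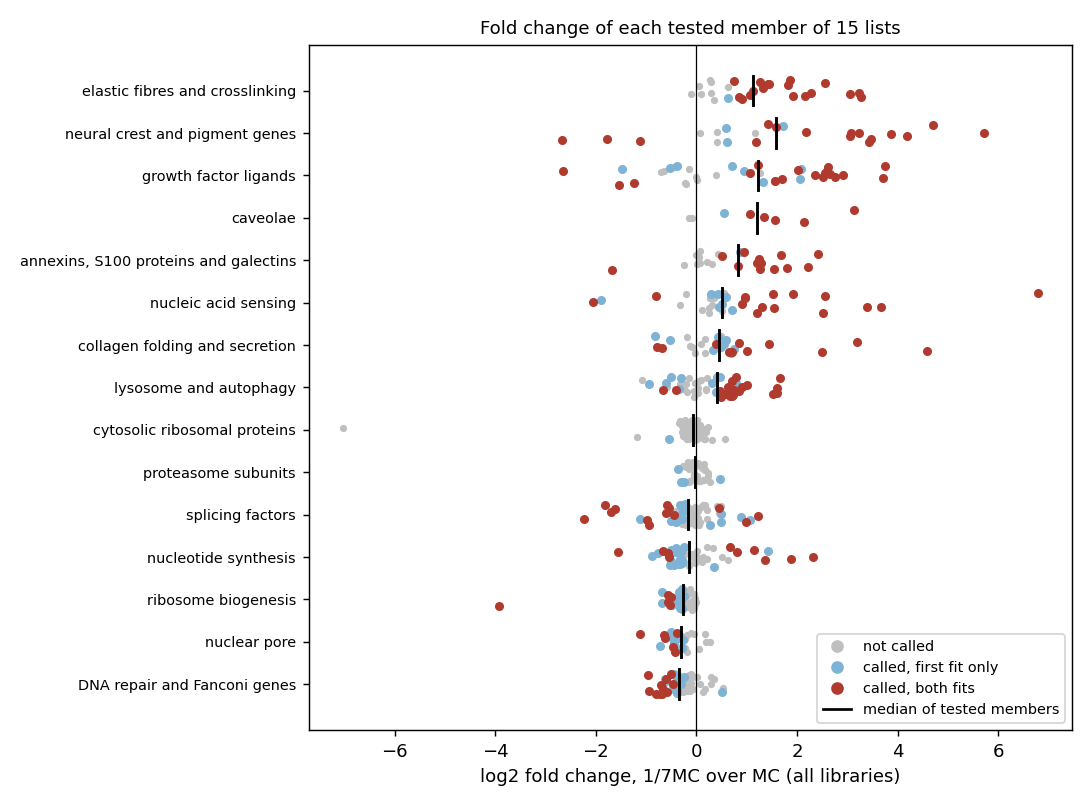
Log2 fold change of 1/7MC over MC for each tested member of 15 lists, 1 point per gene; red points had an adjusted p under 0.05 in both fits, blue points in the first fit only, grey points were not called, and the bar is the median. Elastic fibre genes lie at or right of 0 in nearly all members, ribosomal proteins and proteasome subunits cluster at 0, and DNA repair and nuclear pore genes lie mostly to the left by less than 1. The grey point near -7 is RPL19.

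Channels, transporters and receptors differed by member. Of potassium channels, 18 of 64 tested members were higher in 1/7MC and 14 lower (16 and 10 in both fits). Their shares of 28.1% and 21.9% lay near the backgrounds of 23.7% and 20.7%. KCNMA1, the large-conductance channel opened by calcium, had 0.589, 0.67 and 0.333 CPM in MC and 12.3, 15.7 and 12.2 CPM in 1/7MC, a rise of 4.63 ± 0.25 (4.52 against MC replicate 1), and KCNE4 rose (4.5 ± 0.42, 4.23), while KCND2 (-1.78 ± 0.49, -2.09) and KCNS1 (-1.87 ± 0.40, -2.32) fell. Of sodium and calcium channels, 9 of 38 tested members were higher in 1/7MC and 11 lower (6 and 9 in both fits). The share higher, 23.7%, equalled the background, and the share lower was 28.9% against 20.7%. CACNA1C, the pore of the L-type calcium channel, had 0.336, 0.191 and 0.222 CPM in MC and 3.91, 6.41 and 3.93 CPM in 1/7MC, a rise of 4.21 ± 0.36 (3.83 against MC replicate 1), and TRPC5 (-3.98 ± 0.75, -4.09) fell. Of solute carriers, 53 of 267 tested members were higher in 1/7MC and 63 lower (28 and 33 in both fits), both near the background. Of ABC transporters, 7 of 33 were higher and 9 lower (6 and 3), shares of 21.2% and 27.3%. The cholesterol exporter ABCG1 was higher (2.34 ± 0.30, 1.71). Of metallothionein, iron and zinc genes, 7 of 29 were higher and 9 lower (7 and 5), shares of 24.1% and 31.0%. SLC39A14, an importer of zinc and iron, had 373, 382 and 374 CPM in MC and 163, 194 and 149.6 CPM in 1/7MC (-1.16 ± 0.15, -1.13), and HMOX1, which releases iron from haem, fell (-0.92 ± 0.11, -0.92). CP, the iron oxidase ceruloplasmin, rose (3.4 ± 0.30, 3.34). Of adhesion and orphan G protein-coupled receptors, 18 of 61 were higher and 12 lower (9 and 5), shares of 29.5% and 19.7%. Without MC replicate 2, 7 were lower. ADGRF5 was higher (4.86 ± 0.54, 5.97) and ADGRG1 lower (-1.68 ± 0.26, -1.61). Of tetraspanins, 8 of 24 were higher and 7 lower (3 and 4), shares of 33.3% and 29.2%. CD82 rose (1.36 ± 0.21, 1.41) and TSPAN5 fell (-1.19 ± 0.14, -1.54).

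**Figure D5:**
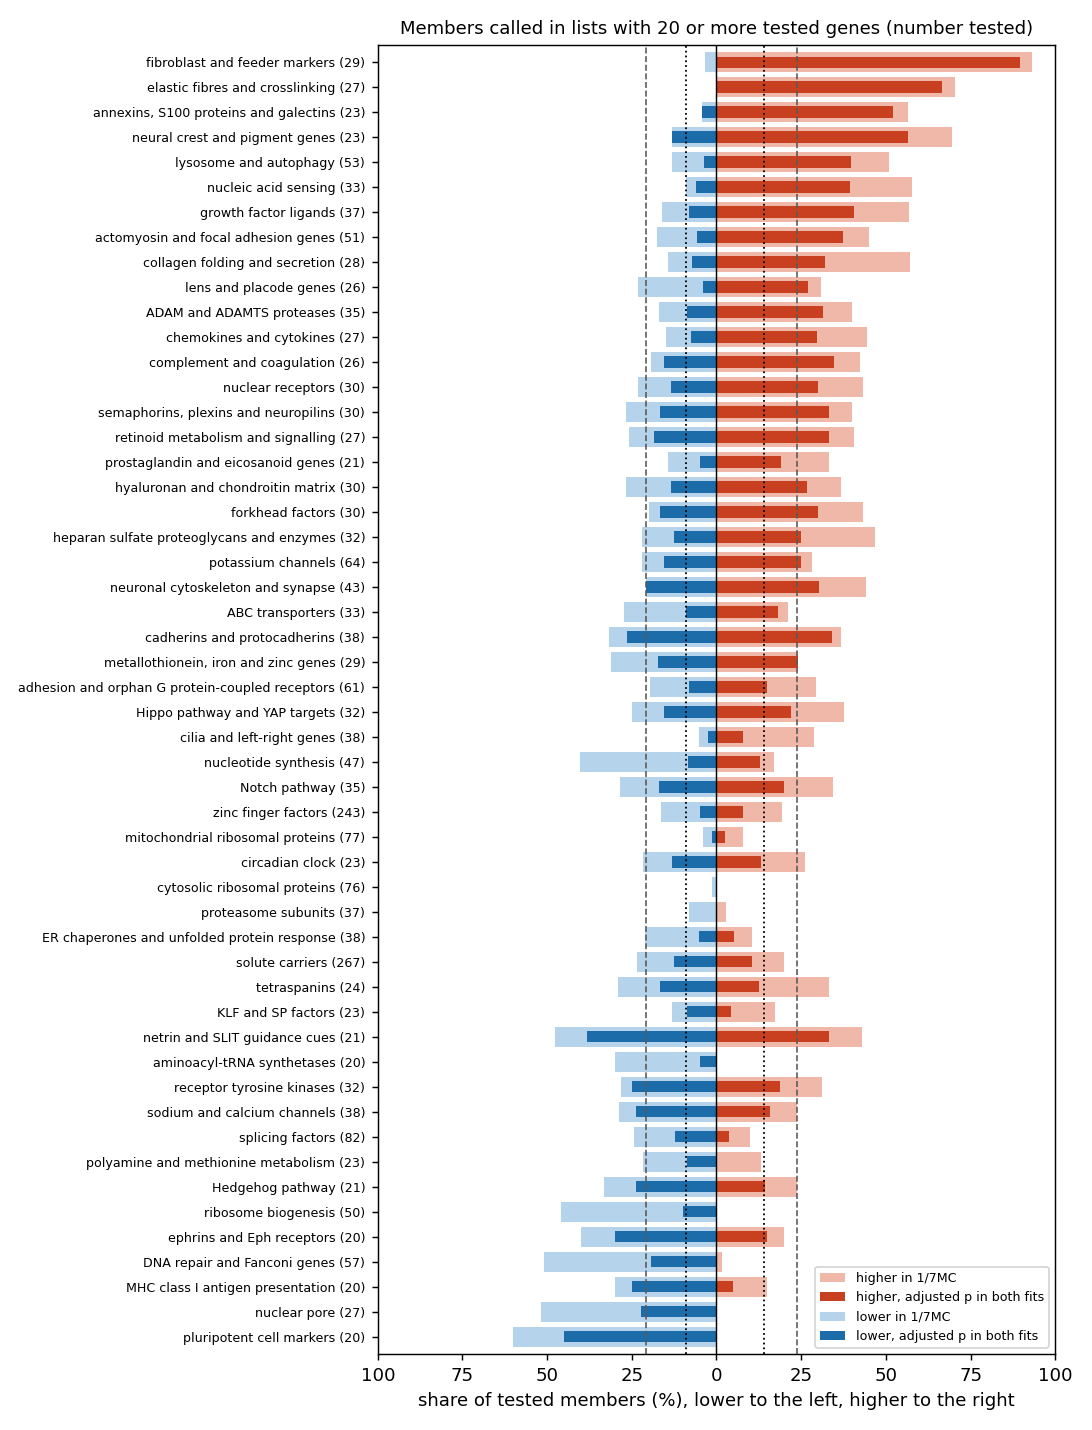
Share of tested members higher (right, red) and lower (left, blue) in 1/7MC for lists with 20 or more tested genes; wide pale bars use the call rule and narrow dark bars an adjusted p under 0.05 in both fits. Dashed lines mark the background shares of 23.7% higher and 20.7% lower, dotted lines those of 13.9% and 9.04% in both fits. Elastic fibre genes stand next to the fibroblast markers at the top, and DNA repair, MHC class I, nuclear pore and pluripotent genes at the bottom.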

How the data were processed

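Messenger RNA of 12 libraries of the bovine line F7, 3 per group, was sequenced. Per the labels' protocols, libraries were made from poly-A RNA with random hexamers and a NEBNext Ultra kit. The protocol names no strand-marking step, so reads of overlapping and antisense genes cannot be told apart by strand. Reads of near-identical genes cannot be told apart either, whatever the strand. The authors deposited whole-number counts per gene without normalisation. Per the submitters' processing notes, the genome build was bosTau9 and the tools were featureCounts, Subread 2.0, HISAT2 2.1.0 and fastp 0.19.7; the gene annotation is not given in the sources used here.

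Of 19285 entries, 400 that shared an Ensembl or Entrez identifier with another were left out, and 18885 were kept, 18803 of them with a symbol. The difference in gene models was checked on these identifiers: of 128 shared Ensembl identifiers 0 carried differing counts in MC replicates 2 and 3, and 80 to 86 did in each of the remaining 10. Total counts ranged from 27373759 to 44440972 per library. A deposited table named TPM was not used.

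All 12 libraries entered the first fit of edgeR 4.0.16 (R 4.3.3), the quasi-likelihood F test on a model of 4 group means, with TMM scaling and filterByExpr; the second fit used 10 libraries, without MC replicates 2 and 3. Each adjusted p comes from these fits, with the Benjamini-Hochberg method over every tested gene. The SE was taken as the fold change over the root of the F statistic. The code was tested on simulated data. No source says that the replicates came from separate cultures; the p-values then rest on the spread between these libraries alone, which may be technical.

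The members and the 61 gene lists were chosen with earlier results of these data known, and some genes stand in more than 1 list. Lists are described by counts and medians without a set test. Named genes are the 25 largest rises and 25 largest falls (adjusted p under 0.05 in both fits, no overlap of the groups, a mean of at least 5 CPM in the higher group), in each list up to 6 called members with the largest fold against MC replicate 1 and up to 3 of the other direction, all genes near 0 in 1 group, and well-known members that were not called. GLI1, BRCA1, MITF, ALDH1A1 and RPL19 were named after their values were seen. Alternatives were DESeq2 1.42.0 and its size factors, other filters, the 6 libraries alone, a replicate block, all entries kept, other call rules and leaving out each library. Motifs in promoters were not searched, and some genes and 1 of the lists are not reported here. Figures were drawn with Python 3.11.15 and matplotlib 3.10.9.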

Additional observations from a re-analysis of the deposited data

How the results depend on the processing

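The numbers of genes higher and lower, 3302 and 2879, became 1935 and 1258 when an adjusted p under 0.05 was required in both fits, and 3303 and 2965 without the second fit. They stayed within 1.5 times with DESeq2 (3384 and 3119), its size factors in edgeR (3246 and 2952), no filter (3269 and 2809), a filter of 1 CPM in 3 libraries (2877 and 3077), the 6 libraries alone (3307 and 2896) and all entries kept (3298 and 2909). Leaving out 1 library gave 2712 to 3838 higher and 2255 to 3115 lower. The highest of each came without MC replicate 1, where no second fit was made and the adjusted p alone decided. Of the genes near 0 in MC, 12 became 23 with MC replicates 2 and 3 both left out and 13 to 32 with 1 library left out, the highest without MC replicate 1; near 0 in 1/7MC, 0 became 1 with limits of 1 and 0.1 CPM and 0 to 18 with 1 library left out. Whether the replicate numbers pair the samples could not be decided. Deviations of same-numbered MC and 1/7MC libraries correlated at -0.075, -0.076 and 0.089 across genes, and those of differently numbered libraries at -0.148 to 0.127. The MC deviations carry the difference in gene models between replicate 1 and the other MC libraries, which can hide a pairing. With the replicate block 3158 genes were higher and 2729 lower. Among the 533 genes chosen by the rule no called fold change turned its direction; RPL19, outside the rule and not called, turned in the second fit. Of the 533, 466 kept their call under every setting in which they were tested. The other call rules, such as that of both fits, were not among these settings. Of the list counts, 143 moved by over 1.5 times, 61 of them when both fits were required. Low-level genes are limited by depth. The filter of 1 CPM in 3 libraries acted on them in another way. The second fit holds only 1 MC library, so genes that reached 1 CPM only in MC were left out of it, which ended their call.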

Other observations

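The genes that were near 0 in MC and on in 1/7MC had these levels where pyruvate or pyruvate and FGF had been added. FAP had 1.06, 0.633 and 0.497 CPM in 1/7MC+Pyr and 0.376, 0.424 and 0.738 CPM in 1/7MC+Pyr+FGF, where FAP is a surface protease of activated fibroblasts. NTS had 1.23, 1.55 and 1.42 CPM in 1/7MC+Pyr and 3.72, 2.45 and 2.7 CPM in 1/7MC+Pyr+FGF, and PTHLH had 2.29, 1.84 and 2.27 CPM in 1/7MC+Pyr and 0.776, 1.36 and 0.936 CPM in 1/7MC+Pyr+FGF. ARHGDIB had 0.887, 0.576 and 0.603 CPM in 1/7MC+Pyr and 1.48, 1.12 and 1.67 CPM in 1/7MC+Pyr+FGF; it is known from blood cells. In the 1/7MC libraries these genes lay at 3.56 to 4.98 CPM for FAP, 4.78 to 4.92 CPM for NTS, 2.36 to 2.62 CPM for PTHLH and 3.06 to 3.79 CPM for ARHGDIB. SRPX2 had 3.75, 1.87 and 4.61 CPM in 1/7MC+Pyr and 2.23, 2.03 and 1.5 CPM in 1/7MC+Pyr+FGF, and WFIKKN2 had 0.614, 0.432 and 0.71 CPM in 1/7MC+Pyr and 0.447, 0.817 and 1.22 CPM in 1/7MC+Pyr+FGF. DAPL1 had 0, 0.0575 and 0.0355 CPM in 1/7MC+Pyr and 0.047, 0.121 and 0.17 CPM in 1/7MC+Pyr+FGF. PALMD had 1.47, 1.96 and 1.88 CPM in 1/7MC+Pyr and 2.16, 1.18 and 2.07 CPM in 1/7MC+Pyr+FGF. SLC22A3 had 1.71, 1.06 and 1.35 CPM in 1/7MC+Pyr and 0.87, 0.756 and 1.65 CPM in 1/7MC+Pyr+FGF, and GPC5 had 1.36, 0.95 and 1.24 CPM in 1/7MC+Pyr and 0.682, 0.908 and 1.25 CPM in 1/7MC+Pyr+FGF. ESM1 had 0.648, 0.259 and 0.0709 CPM in 1/7MC+Pyr and 0.635, 0.938 and 0.624 CPM in 1/7MC+Pyr+FGF, and CDH12 had 1.26, 1.29 and 1.31 CPM in 1/7MC+Pyr and 1.18, 1.27 and 1.22 CPM in 1/7MC+Pyr+FGF. No test was made of these differences here.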
